A study of Mus musculus with 4 samples.

Results

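Inhibitory and modulatory transmitters of the retina are made and moved by a small set of genes, and 9 of them were followed here in sorted cells of the injured mouse retina. They were taken by name from a table of 56493 genes, and all 9 were found. They are Gad1, Gad2 and Slc32a1 for GABA, Slc6a9 and Slc6a5 for glycine, Chat and Slc5a7 for acetylcholine, Th for dopamine, and Tfap2b, a transcription factor of amacrine cells. Gad1, Gad2 and Slc32a1 lie on chromosome 2, Slc6a9 on chromosome 4, Slc6a5 and Th on chromosome 7, Chat on chromosome 14, Slc5a7 on chromosome 17 and Tfap2b on chromosome 1. RNA was sequenced from cells labelled as retinal ganglion cells (RGC) and, per the series' design text, purified by fluorescence-activated sorting. All the mice were wild type, received an AAV2 vector by intravitreal injection, and had the optic nerve crushed a month later. The AAV2-CrAT group, with a vector for carnitine acetyltransferase, had 2 libraries and the AAV2-MCS group had 2 libraries. The labels spell out neither MCS nor NCd8, a term in every title, and they give no promoter, insert sequence, age or time after crush. Whether replicates were separate animals is not stated, and each p-value rests on the spread of these samples alone, which could be technical.

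Amacrine cells are the inhibitory interneurons of the inner retina, and some of them lie displaced among the ganglion cells. Most release GABA or glycine, and smaller classes add acetylcholine (the starburst cells) or dopamine. The 2 glutamate decarboxylases encoded by Gad1 and Gad2 make GABA from glutamate, and the vesicular transporter encoded by Slc32a1 loads both GABA and glycine into vesicles. The plasma membrane transporters encoded by Slc6a9 and Slc6a5 take up glycine. Choline acetyltransferase (Chat) makes acetylcholine from choline, which the transporter encoded by Slc5a7 brings in, and tyrosine hydroxylase (Th) catalyses the rate-limiting step of dopamine synthesis.

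Markers of the labelled cell type were far below those of rods. Libraries held 24494253 to 27097438 counts. Summed over fixed marker lists, 9 rod markers came to 43368 and 23090 CPM (counts scaled to depth with TMM factors) in CrAT replicates 1 and 2, against 42091 and 24877 CPM in the MCS pair, while 10 ganglion cell markers came to 82.3 and 192 CPM in CrAT, against 58.4 and 138 CPM in MCS. Of the planned ganglion cell checks, Slc17a6 had 30 and 510 counts in CrAT and 6 and 153 in MCS. Thy1 had 279 and 578 counts in CrAT and 273 and 831 in MCS, and Rbpms 100 and 73 in CrAT and 87 and 237 in MCS. The ganglion cell factor Pou4f2, which was not a planned check, had 0 counts in 3 of the 4 libraries. Amacrine markers, a list of 10 that holds none of the 9 genes, summed to 455 and 718 CPM in CrAT, against 524 and 623 CPM in MCS. Crat itself was at 72.5 and 49.9 CPM in CrAT, against 38.3 and 47.7 CPM in MCS (log2 fold change 0.51, SE 0.33; edgeR quasi-likelihood test, adjusted p = 1.00). In such bulk samples fewer cells of a type and less RNA per cell cannot be told apart.

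The starts of 4 of the genes are printed here because 3 of them, Gad1, Th and Tfap2b, differed most between the libraries of a group among the genes with at least 20 counts in every library, and because Gad2, which makes the same transmitter as Gad1, differed less. Each sequence is RefSeq's window of 250 bases before to 50 bases after the gene's start in build GRCm38.p6, read along the gene's strand. Capitals mark matches to the AP-2 motif GCCNNNGGC, named for the factor family of Tfap2b, and to CAGNTG, a form of the E-box. Below, E-box means this form only, and other forms were not searched. Both strands were searched, with no overlap between the 2 motifs in these windows.
Gad1, chr2:70561879-70562178, plus strand: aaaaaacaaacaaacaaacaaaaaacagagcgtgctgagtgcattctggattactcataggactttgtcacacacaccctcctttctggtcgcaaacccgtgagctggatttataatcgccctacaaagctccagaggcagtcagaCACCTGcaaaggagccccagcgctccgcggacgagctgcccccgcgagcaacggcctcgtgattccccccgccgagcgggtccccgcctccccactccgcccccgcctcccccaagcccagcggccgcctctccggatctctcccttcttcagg
Gad2, chr2:22622077-22622376, plus strand: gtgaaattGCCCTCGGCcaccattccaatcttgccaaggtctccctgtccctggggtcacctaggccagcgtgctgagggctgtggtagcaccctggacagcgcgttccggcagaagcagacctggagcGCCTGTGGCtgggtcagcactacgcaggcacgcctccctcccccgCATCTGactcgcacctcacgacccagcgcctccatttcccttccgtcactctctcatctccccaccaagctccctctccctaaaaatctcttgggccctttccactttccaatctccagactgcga
Th, chr7:142899946-142900245, minus strand: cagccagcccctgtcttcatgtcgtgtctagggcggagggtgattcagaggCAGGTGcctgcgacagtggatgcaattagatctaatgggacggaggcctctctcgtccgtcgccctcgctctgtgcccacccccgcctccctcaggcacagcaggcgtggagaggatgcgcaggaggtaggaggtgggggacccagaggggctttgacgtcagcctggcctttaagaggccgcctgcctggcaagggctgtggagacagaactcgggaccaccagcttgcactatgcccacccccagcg
Tfap2b, chr1:19211804-19212103, plus strand: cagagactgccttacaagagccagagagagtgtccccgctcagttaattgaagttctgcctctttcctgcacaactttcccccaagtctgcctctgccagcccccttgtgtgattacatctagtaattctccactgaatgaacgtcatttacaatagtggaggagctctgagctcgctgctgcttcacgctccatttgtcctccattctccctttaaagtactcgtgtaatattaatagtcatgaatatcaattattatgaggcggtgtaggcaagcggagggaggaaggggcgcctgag
The Gad2 window held 2 AP-2 matches and 1 E-box, those of Gad1 and Th held 1 E-box each, and the Tfap2b window held neither motif. All 9 genes had a window, 12 windows in all, and an AP-2 match stood in 1 of the 12 (8.33%), against 16.6% of the 32851 windows of all genes. An E-box stood in 8 of the 12 (66.7%), against 51.4% of all windows. A match is a run of letters and not a binding site.

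Among the GABA genes, Gad1 was the most abundant and the most variable. Gad1 had 1798 and 18318 counts (75.3 and 690.9 CPM) in replicates 1 and 2 of CrAT, against 843 and 7188 counts (33.9 and 260.3 CPM) in those of MCS. Both replicate 2 libraries stood well above both replicate 1 libraries, and the 2 groups overlapped. Gad2 was at 13.2 and 46.3 CPM in CrAT, against 9.77 and 30.6 CPM in MCS. Slc32a1, the vesicular transporter, was at 7.04 and 23.5 CPM in CrAT, against 6.80 and 20.9 CPM in MCS. The libraries came in the same order for all 3 genes, with CrAT replicate 2 highest and MCS replicate 2 second, but the values of Slc32a1 in the 2 groups were close at either replicate number. Of the summed exon bases of Slc32a1, 24.9% are shared with Gm14205, a noncoding gene on the opposite strand with 20 to 87 counts. The library kit does not mark strand, so reads there cannot be assigned to 1 of the 2.

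The glycine transporter Slc6a9 had the highest level of the 9 genes per length in every library. It was at 84.3 and 160 FPKM in CrAT replicates 1 and 2 and 64.6 and 126 FPKM in MCS replicates 1 and 2 (FPKM, counts scaled to exon length and depth). This was 80.9% and 53.0% of the summed FPKM of the 9 genes in CrAT, and 85.2% and 63.8% in MCS. In CPM it was at 447 and 829 in CrAT and 327 and 638 in MCS, again with both replicate 2 libraries on top and the groups overlapping. Its level is uncertain, since 30.2% of its exon bases are also exon of Ccdc24, B4galt2 or Gm17114 on the opposite strand. Ccdc24 had 2852 and 5554 counts in CrAT and 2287 and 5241 counts in MCS, the same order of replicates as Slc6a9. Slc6a5, the second glycine transporter, shares no exon base with another gene in the table. It was at 12.1 and 45.8 CPM in CrAT, against 8.003 and 19.7 CPM in MCS, or 1.62 and 6.31 FPKM in CrAT and 1.13 and 2.79 FPKM in MCS.

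Of the acetylcholine genes, Chat had counts in 1 library only and Slc5a7 was low in all 4. Chat had 13 counts in CrAT replicate 1 and 0 in CrAT replicate 2, and 0 in both MCS libraries. A count of 0 allows up to 0.112 CPM in CrAT replicate 2 and up to 0.122 and 0.111 CPM in MCS replicates 1 and 2, by 3 counts of the library total, which covers counting error only. Chat was therefore too low to be tested. Slc5a7 had 7 and 78 counts in CrAT and 1 and 16 counts in MCS (0.293 and 2.94 CPM, against 0.0402 and 0.579 CPM), so its libraries came in the order of the GABA genes and not of Chat. Slc18a3, the vesicular acetylcholine transporter, whose gene lies within Chat, had 2 and 4 counts in CrAT and 0 and 1 in MCS. Chat and Slc18a3, which define the starburst cells, thus had 13 counts or fewer in every library.

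Th, for dopamine, and Tfap2b followed the GABA genes. Th had 30 and 365 counts in CrAT (1.26 and 13.8 CPM) and 20 and 211 counts in MCS (0.804 and 7.64 CPM). Other genes of dopamine synthesis and transport were mixed. The dopamine transporter Slc6a3 had 0 counts in all 4 libraries, and dopa decarboxylase (Ddc), the next enzyme of the pathway, had 18 and 0 counts in CrAT and 1 and 6 in MCS. The vesicular monoamine transporter gene Slc18a2 was at 8.92 and 8.60 CPM in CrAT, against 6.88 and 4.56 CPM in MCS, with neither replicate 2 library above its replicate 1. These 3 genes, and Slc18a3 above, were chosen after their values were seen. Tfap2b was at 22.2 and 150 CPM in CrAT, against 6.80 and 112 CPM in MCS. Both replicate 2 libraries were again above both replicate 1 libraries for Th and for Tfap2b.

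**Figure D1:**
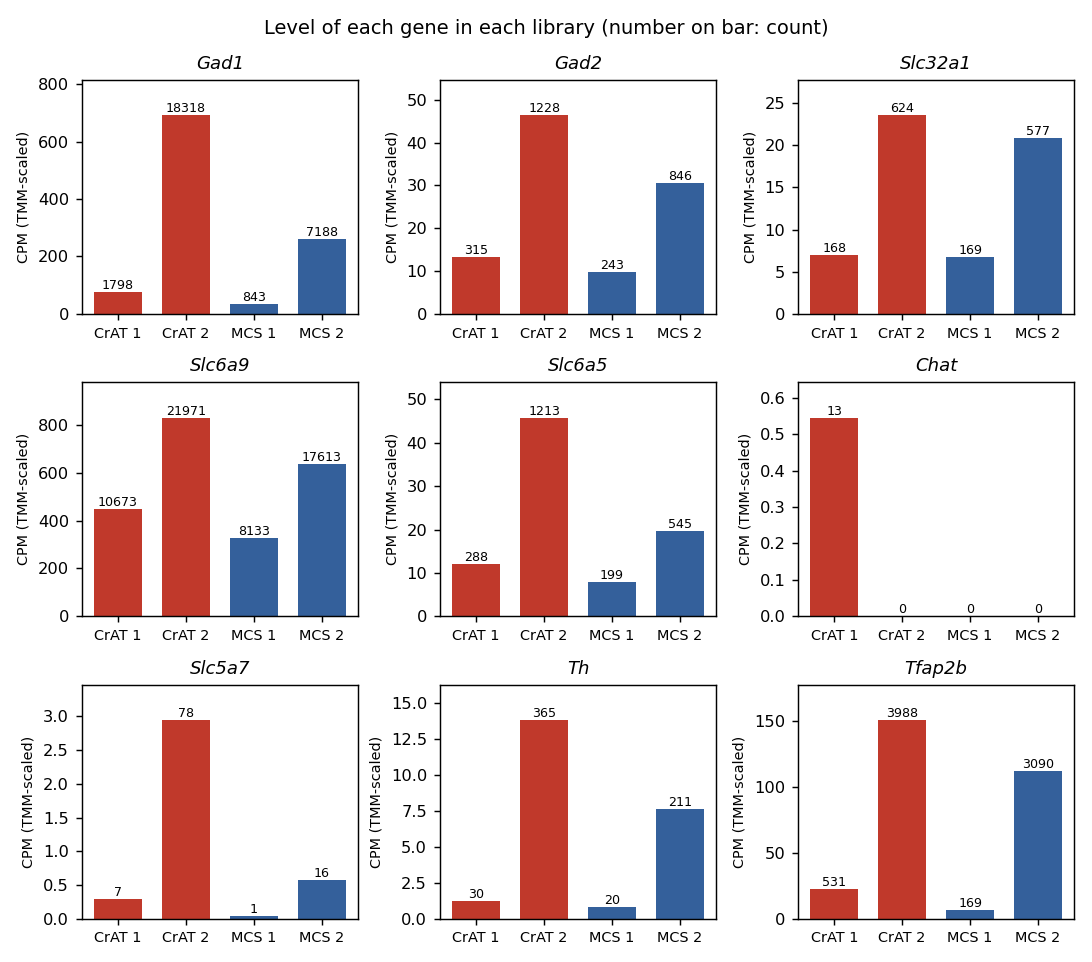
Level of each of the 9 genes in CPM (TMM-scaled, vertical axis from 0, own scale for each gene) in CrAT replicates 1 and 2 (red) and MCS replicates 1 and 2 (blue), with the count on each bar. For every gene but Chat, CrAT replicate 2 is highest and MCS replicate 2 second, and Chat has counts in CrAT replicate 1 only.

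Per length, the median over the 4 libraries put the genes in the order Slc6a9 (105 FPKM), Gad1 (22.1), Tfap2b (10.7), Slc32a1 (5.03), Gad2 (3.75), Slc6a5 (2.21), Th (1.90), Slc5a7 (0.0775) and Chat (0). The ranges of all neighbours in this order overlapped over the libraries. Slc6a9 ranged from 64.6 to 160 FPKM and Gad1 from 4.50 to 89.8 FPKM over the libraries, and Slc5a7 did not exceed 0.518 FPKM where Th started at 0.345 FPKM. Compared within a library, where both genes share its depth and cells, most neighbours kept their order. In all 4 libraries Slc6a9 was above Gad1, Gad1 above Tfap2b, Slc32a1 above Gad2, Gad2 above Slc6a5 and Th above Slc5a7. In 3 of the 4 Tfap2b was above Slc32a1 (all but MCS replicate 1), Slc6a5 above Th (all but MCS replicate 2) and Slc5a7 above Chat (all but CrAT replicate 1). None of these orders was tested.

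The difference between replicates 1 and 2 was in the same direction in both groups and, for each of the 8 genes tested, larger as a ratio than that between the CrAT and MCS libraries of equal number. Of the 8 genes tested, 7 were at least 2-fold higher in replicate 2 than in replicate 1 in CrAT, where 10% of the 19638 genes tested were, and the same number in MCS, where 11.4% were. It was 7 of 8 in both groups at once, against 4.61% of all genes. At least 4-fold in both groups were 4 of the 8 (Gad1, Slc5a7, Th and Tfap2b), against 1.3% of all genes. In CrAT alone that fold was passed by 3.55% of all genes and in MCS alone by 3.68%. Of the 8, all had CrAT replicate 2 as the highest library, against 21.9% of all genes, and MCS replicate 2 as the second, against 9.84% for both. Slc5a7 had under 10 counts in both replicate 1 libraries and passed the filter on low counts through its replicate 2 libraries. Its ratio therefore had to be high, and its replicate 2 libraries had to be on top. Without Slc5a7, 6 of 7 genes were past 2-fold in both groups and 3 of 7 past 4-fold. All 7 had CrAT replicate 2 highest and MCS replicate 2 second. The median ratio over all genes was 1.00 in CrAT and 0.998 in MCS. With 1 library on each side there is no test of these ratios, and the labels do not say what a replicate number shares.

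Gene by gene, the ratio of replicate 2 to replicate 1 for Gad1 was 9.17 in CrAT and 7.68 in MCS, with 95% counting intervals (exact binomial) of 8.74 to 9.63 and 7.15 to 8.26. For Gad2 it was 3.51 in CrAT and 3.14 in MCS, and for Slc32a1 it was 3.34 and 3.07. The GABA genes thus split, with Gad1 further apart between replicates than the other two. Slc6a9 had the smallest ratios, 1.85 in CrAT and 1.95 in MCS, and was the exception to the 2-fold count. Slc6a5 had ratios of 3.79 (interval 3.33 to 4.33) in CrAT and 2.47 (2.09 to 2.92) in MCS. Th had 10.95 (7.54 to 16.5) in CrAT and 9.50 (5.998 to 15.9) in MCS, and Slc5a7 10.03 (4.65 to 25.8) in CrAT and 14.4 (2.24 to 604) in MCS, where replicate 1 had 1 count. Tfap2b had 6.76 (6.18 to 7.42) in CrAT and 16.5 (14.1 to 19.3) in MCS. For Gad1, Slc6a9, Slc6a5 and Tfap2b the counting intervals of the 2 groups did not overlap, though for Slc6a9 only just, with an upper bound of 1.897 in CrAT and a lower bound of 1.8995 in MCS. They cover counting error only, and whether the groups differ in these ratios was not tested, because each ratio rests on 1 pair of libraries.

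**Figure D2:**
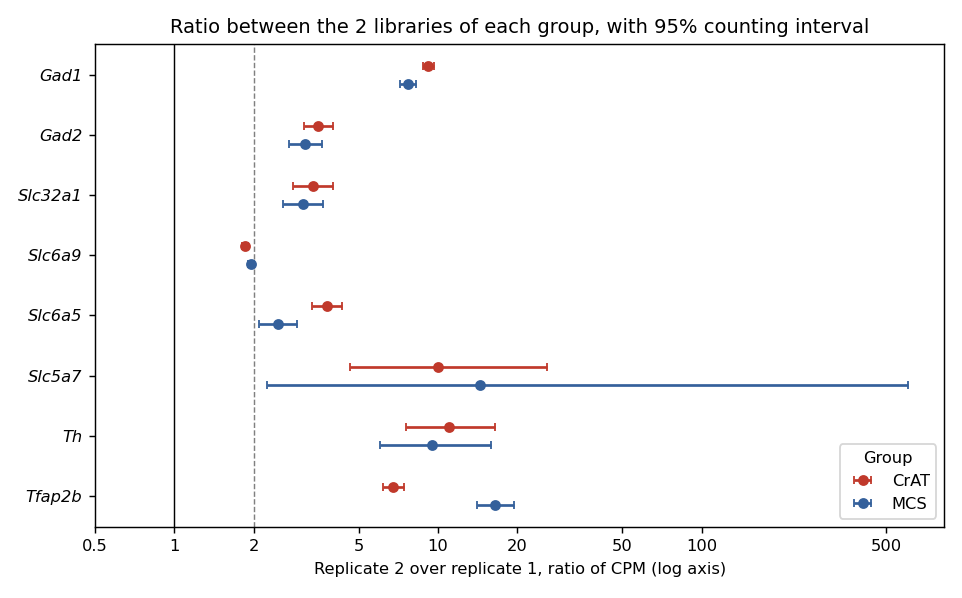
Ratio of CPM in replicate 2 to that in replicate 1 (horizontal log axis) for the 8 genes with counts in all libraries, in CrAT (red, upper point) and MCS (blue, lower point), with 95% counting intervals as bars. The solid line marks 1 and the dashed line 2; all points but those of Slc6a9 lie past 2-fold.

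Other cell type markers moved with the replicate number as well. Rod markers were lower in replicate 2 than in replicate 1 of either group, by the sums given above, and the summed ganglion cell markers were higher. At least 2-fold higher in replicate 2 were 5 of 8 tested ganglion cell markers in CrAT, against 10% of all genes, and 7 of 8 in MCS, against 11.4%. Pou4f1, a ganglion cell factor among them, had 0 and 20 counts in CrAT and 1 and 15 in MCS and passed the filter through its replicate 2 libraries, so it had to be high. Without it the counts were 4 of 7 in CrAT and 6 of 7 in MCS. Slc17a6 in replicate 2 was at 15.3 times its replicate 1 level in CrAT and 23.0 times in MCS, where replicate 1 had 6 counts. For Sncg it was 7.58 and 5.71 times, and for Thy1 1.87 and 2.74 times. Rbpms was at 0.657 times its replicate 1 level in CrAT but 2.45 times in MCS. The neurofilament gene Nefh was at 0.905 times in CrAT and 0.679 times in MCS. Of 9 tested amacrine markers outside the 9 genes, 4 were at least 2-fold higher in replicate 2 in CrAT and 5 in MCS, beside the same shares of all genes, and Ptf1a, which was not tested, was at 0 in 3 libraries. Of 5 tested horizontal cell markers, 2 were at least 2-fold higher in replicate 2 in CrAT, against 10% of all genes, and 1 in MCS, against 11.4%. Onecut1 was 1 of the 2 in CrAT, with 7 and 47 counts there and 8 and 16 in MCS. It passed the filter through its replicate 2 libraries, so it had to be high, which leaves Calb1. Calb1 was at 25.4 and 79.8 CPM in CrAT, against 8.45 and 43.0 CPM in MCS, while Lhx1, which was not tested, was at 0 in 3 of the 4 libraries. The sum of 6 horizontal cell markers, mostly Prox1 and Septin4, was 344 and 454 CPM in CrAT, against 351 and 362 CPM in MCS. Set against the summed FPKM of the 10 amacrine markers, Gad1 differed 5.89-fold between replicates in CrAT and 5.68-fold in MCS, Th 7.03-fold in both groups, and Tfap2b 4.34-fold and 12.2-fold. On the same scale Slc6a9 differed 1.19-fold in CrAT and 1.44-fold in MCS. The sum of 55.9 FPKM in CrAT replicate 1 was mostly Pax6 (20.7), Dab1 (15.2) and Tfap2c (11.1), whose ratios of replicate 2 to replicate 1 lay between 0.865 and 1.79 in both groups. Less abundant markers of the list moved more, Tfap2a 7.32-fold in CrAT and 18.2-fold in MCS and Elavl3 2.76-fold and 6.66-fold, so these values hold for that sum and not for each marker. What part of the replicate difference came with the mix of cells was not tested.

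CrAT and MCS were compared next, to ask whether these genes differ when the vector carries CrAT. None of the 8 tested genes passed (edgeR quasi-likelihood test, adjusted p over all genes 1.00 for each; 0 with an unadjusted p under 0.05 by edgeR and 0 by DESeq2, which also called none of the 8). Over all genes edgeR called 0.0% and DESeq2 0.291%, and 4.57% had an unadjusted p under 0.05 in DESeq2. All 8 log2 fold changes, CrAT over MCS, were positive, where 50.6% of all genes were, with a median of 0.69 against 0.01 over all genes. For none of the 8 was the lower CrAT library above the higher MCS library, which held for 15% of all genes, or the higher one below the lower, which held for 16.6%. With the replicate number as a block all 8 stayed positive. The direction changed in fits with a library left out, which also leave the replicate numbers uneven between the groups. Without CrAT replicate 2 all 8 were negative, with a median of -0.77, and without MCS replicate 1 the 8 split into 4 above and 4 below 0, with a median of -0.01. Leaving out CrAT replicate 1 gave a median of 1.52, and leaving out MCS replicate 2 gave 2.54. With 2 libraries a group, an exact two-sided permutation test gives 0.333 at the least, and none was run.

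The intervals of the fold changes were wide. Gad1 averaged 383 ± 435 CPM in the CrAT libraries, against 147 ± 160 CPM in the MCS libraries (SD, n = 2 each), with a log2 fold change of 1.38 (SE 1.19, 95% interval -1.52 to 4.29). Gad2 had 0.56 (SE 0.75) and Slc32a1 0.14 (SE 0.74, interval -1.66 to 1.95). Slc6a9 was the most precise, at 638 ± 270 CPM in the CrAT libraries, against 482 ± 220 CPM in the MCS libraries (SD, n = 2 each), with a log2 fold change of 0.40 (SE 0.47, interval -0.73 to 1.54), so a fold from 0.602 to 2.90 lies within its interval. Slc6a5 had 1.06 (SE 0.72, interval -0.70 to 2.82). Slc5a7 had the largest value and the least certain one, 2.35 (SE 1.42), from 102 counts in all. Th had 0.83 (SE 1.28) and Tfap2b 0.54 (SE 1.28). A miss of the threshold does not show that the groups are alike, as each interval includes folds above 2.

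**Figure D3:**
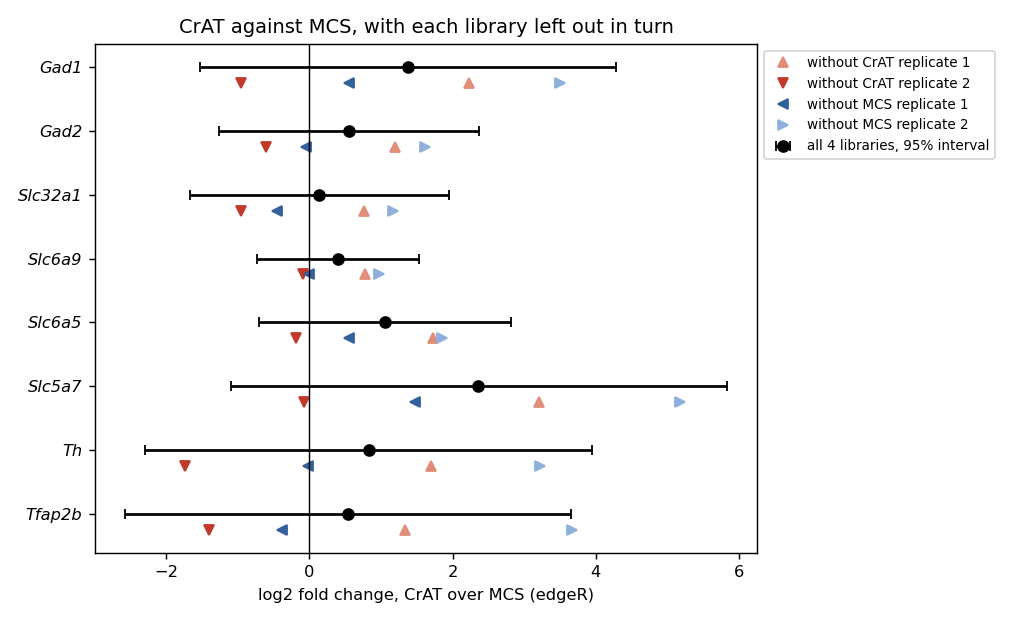
log2 fold change, CrAT over MCS, of the 8 genes tested (black points, with 95% intervals from edgeR as bars) and the value with each library left out in turn (triangles, red shades for a CrAT library, blue for an MCS library). All intervals include 0, and without CrAT replicate 2 every value lies below 0.

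At either replicate number, the CrAT library was above the MCS library for all 8 genes. For how many of all genes this held was not counted, so it is not read as a trait of these 8. For Gad1 the CrAT level was 2.22 times the MCS level in the replicate 1 libraries and 2.65 times in the replicate 2 libraries. For Slc6a9 it was 1.37 and 1.30 times, for Slc6a5 1.51 and 2.32 times, and for Th 1.56 and 1.80 times. For Slc32a1 it was 1.04 and 1.13 times. Tfap2b parted more in replicate 1, at 3.27 times, than in replicate 2, at 1.34 times. Since the labels do not say that equal numbers share an animal, day or batch, these are values side by side and not pairs.

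Ratios between genes of the same library do not depend on how the library was scaled. Gad1 had 4.39 and 11.5 times the FPKM of Gad2 in CrAT replicates 1 and 2, and 2.67 and 6.54 times in MCS replicates 1 and 2. The ratio of Gad1 to Slc32a1 was 3.92 and 10.7 in CrAT and 1.83 and 4.56 in MCS. Gad2 and Slc32a1 kept closer to each other, with Gad2 at 0.893 and 0.937 times Slc32a1 in CrAT and 0.686 and 0.699 times in MCS. That ratio was nearly the same between replicates, and it was higher in the CrAT libraries than in either MCS library. It was not tested, being 1 of 7 ratios computed. Slc6a9 had 51.9 and 25.4 times the FPKM of Slc6a5 in CrAT and 57.3 and 45.3 times in MCS, and 8.82 and 1.78 times that of Gad1 in CrAT and 14.3 and 3.64 times in MCS.

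**Figure D4:**
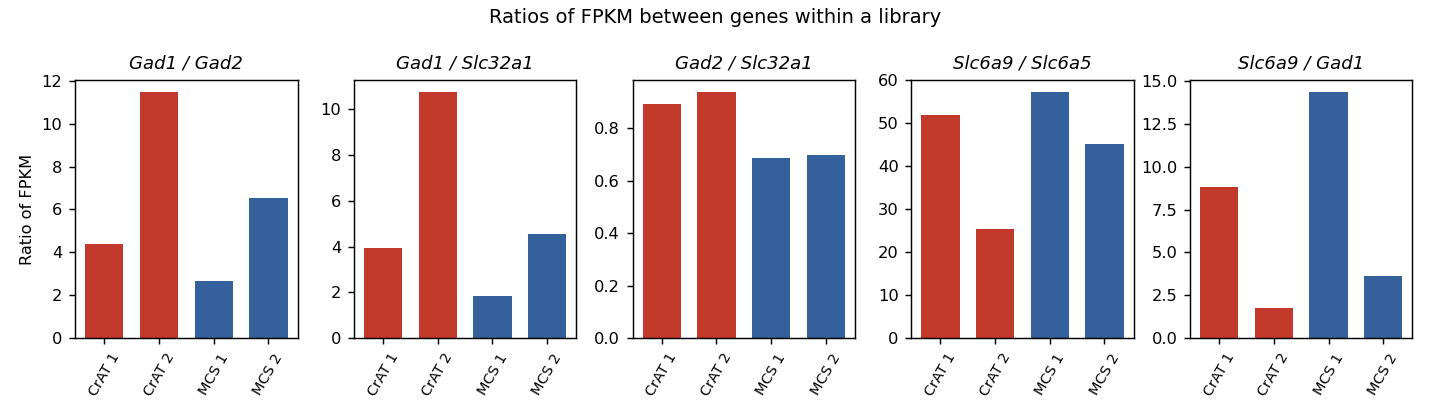
Ratio of FPKM between pairs of the genes within a library (vertical axis from 0, own scale for each pair) for CrAT replicates 1 and 2 (red) and MCS replicates 1 and 2 (blue). Gad1 is higher relative to Gad2 and Slc32a1 in both replicate 2 libraries, while Gad2 to Slc32a1 stays between 0.686 and 0.937.

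Further genes of the same pathways, 55 in all with 47 tested, showed no common direction. None passed (edgeR, adjusted p over all genes), and 2 had an unadjusted p under 0.05 in edgeR, 1 higher and 1 lower in CrAT, or 4.26% of them against 4.15% of all genes (1.28% higher and 2.87% lower; 3 of the 47 did in DESeq2). The log2 fold change was positive for 21 of the 47, and its median was -0.05. The 2 were chosen after their values were seen. They were Bche, a cholinesterase, with -1.50 (SE 0.53), and the neuronal transcription factor Tbr1, with 2.45 (SE 0.87). At least 2-fold above replicate 1 in replicate 2 of both groups were 4 of 47, Slc6a12, Fezf1, Tfap2a and Barhl2 (8.51%, against 4.61% of all genes). Fezf1 had 1 and 33 counts in CrAT and 0 and 17 in MCS and passed the filter through its replicate 2 libraries, so it had to be high, which leaves the other 3.

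By pathway, the most abundant genes were level or mixed. Of 6 genes of GABA uptake and breakdown, 1 was positive and the median log2 fold change was -0.31. The GABA transporter Slc6a11 had -0.51 (SE 0.33), and GABA transaminase (Abat) had -0.02 (SE 0.42). Slc6a11 was at 92.5 and 153 CPM in CrAT, against 176 and 172 CPM in MCS, so its libraries did not come in the order of Gad1. Slc6a11 is also expressed by Mueller glia, whose 8 markers summed to 12480 and 9893 CPM in CrAT, against 18619 and 17983 CPM in MCS, with 6 of 8 lower in both CrAT libraries than in either MCS library, against 16.6% of all genes. The part of these cells in the Slc6a11 values was not tested. Of 7 tested genes of glycine metabolism, 3 were positive, with Gldc of the glycine cleavage system at -0.82 (SE 0.44), Dld at 0.29 (SE 0.30) and Gcsh at 0.01 (SE 0.27).

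Of 8 tested genes of acetylcholine handling and starburst cells, 4 were positive. Acetylcholinesterase (Ache) had -0.05 (SE 0.43), the starburst surface protein gene Megf10 -0.61 (SE 0.41) and Isl1, also a bipolar cell factor, 0.52 (SE 0.39). Ache was at 124 and 214 CPM in CrAT, against 122 and 227 CPM in MCS, in libraries with at most 13 counts of Chat. Of 10 tested dopamine and catecholamine genes, 6 were positive. The pteridine enzymes Qdpr and Pts had 0.10 (SE 0.53) and 0.28 (SE 0.33). Of 16 tested amacrine transcription factors, 7 were positive. Pax6, a factor of amacrine and ganglion cells, was at 250 and 447 CPM in CrAT, against 313 and 270 CPM in MCS (log2 fold change 0.26, SE 0.37), Neurod1, also a photoreceptor factor, had 0.26 (SE 0.42) and Tcf4 had -0.54 (SE 0.29).

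Genes whose pattern over the 4 libraries was most like that of a member were found by the distance between log2 CPM values centred on their mean, among 12199 protein-coding genes. Nearest to Gad1 were Rgs4 (distance 0.41), Gfra1 (0.52), Asic2 (0.66), Syt6 (0.67) and Ripor2 (0.67), where the median gene lay at 3.38. Rgs4, a regulator of G protein signalling, was at 5.32 and 57.7 CPM in CrAT, against 1.85 and 19.6 CPM in MCS. Among the 9 genes, Th was nearest to Gad1 (0.59) and Gad2 was nearest to Slc32a1 (0.41). Nearest to Slc6a9 were Ppp1r13b (0.03), Tkt (0.04), Cacnb4 (0.06), Wasf1 (0.08) and Sirt5 (0.09), with the median gene at 1.19. Such a distance rests on 4 libraries only. For Chat, with counts in 1 library, no likeness is given.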

How the data were processed

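RNA of 4 libraries was analysed, 2 from the AAV2-CrAT and 2 from the AAV2-MCS group, with group and replicate number taken from the sample titles. Per the labels' protocols, the low-input SMART-seq cDNA kit was used, which does not mark strand. STAR 2.7.2b, GRCm38.p6 and mm10 come from the submitters' processing notes, with the counter and annotation release not given in the sources used here. Estimated counts per gene, rounded to whole numbers, and FPKM per gene were deposited by the authors. Counts rebuilt from FPKM differed from the deposited counts by at most 0.5. In the rebuilt values, 43.6% to 44.9% of those above 0 were not whole within 0.02. Per the file headers the coordinates name no build, and 0 of the 9 genes had the start and end of a GRCm38 annotation, so no coordinate of the tables is printed and the promoter windows are RefSeq's own. Each table also held columns of other samples, 4 in all, which were not used.

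Genes were kept with edgeR's filterByExpr by group (19638; Chat was left out) and scaled by TMM (factors 0.970 to 1.02). Groups were tested in R 4.3.3 by the quasi-likelihood F test of edgeR 4.0.16, robust, with group as the only term and 2 residual degrees of freedom, two-sided, Benjamini-Hochberg adjusted over all genes at 0.05. SEs come from the F statistic. DESeq2 1.42.0 was an alternative, as were other scalings, another filter, the replicate number as a block and leaving out each library. The design had assumed counts, and rounded estimated counts take the same test. On simulated counts for CrAT against MCS over 18955 genes, with 50 changed genes of each size, edgeR found 8% of the 2-fold, 42% of the 4-fold, 92% of the 16-fold and 100% of the 64-fold changes and called 8 genes that had none. The simulated spread was edgeR's dispersion trend over all genes and not each gene's own. These shares therefore do not hold for genes with a larger spread, such as Gad1. The 2 libraries of a group differed by more than sampling noise (chi-square divided by its degrees of freedom was 77.5 for CrAT and 131 for MCS), so each counted as 1 sample.

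The 9 genes and all lists were chosen with earlier results of these data known. Genes named were the 9, checks of vector and sort, the 3 most abundant of each pathway list, genes that overlap a member, and the 5 nearest in pattern. A few named by this rule are left unreported, and no protein sequence was compared. Other genes, such as Pou4f2 and further cell type markers, were named outside this rule.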

Additional observations from a re-analysis of the deposited data

How the results depend on the processing

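Leaving out a library changed the direction of these genes. Over the 4 such fits the median log2 fold change of the 8 genes, CrAT over MCS, ran from -0.77 to 2.54. Gad1 ran from -0.95 to 3.50, Gad2 from -0.60 to 1.61, Slc32a1 from -0.96 to 1.17, Slc6a9 from -0.092 to 0.97, Slc6a5 from -0.18 to 1.86, Slc5a7 from -0.072 to 5.17, Th from -1.73 to 3.22 and Tfap2b from -1.40 to 3.67, each lowest without CrAT replicate 2 and highest without MCS replicate 2. The lone library of an arm is then assumed to vary like the other group. Other scalings, DESeq2 and a filter of 1 count in all libraries together kept all 8 positive and none called. Over all genes edgeR called 0, DESeq2 55 and edgeR with that weaker filter 2; the cause was not tested. At 4-fold in place of 2-fold, 4 of 8 genes were past the fold between replicates in CrAT and 4 in MCS. With the replicate number as a block the median was 0.84, 0 genes passed and 4 of the 8 (Gad1, Slc6a5, Slc5a7 and Tfap2b) had an unadjusted p under 0.05 in edgeR, with a lowest adjusted p of 0.216; over all genes, 1922 had an unadjusted p under 0.05, against 815 without it. Deviations of same-numbered libraries correlated at 0.39 across genes, but with 2 pairs this does not show that the numbers pair the samples. Depth limits Chat and Slc5a7, with at most 13 and 78 counts in a library.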

Other observations

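A few genes of the same pathways, chosen after their values were seen, stood out between the replicates of a group. The betaine and GABA transporter Slc6a12 was at 9.76 and 54.8 CPM in CrAT replicates 1 and 2, against 0.402 and 35.7 CPM in the MCS pair, and Tfap2a, a second AP-2 factor, was at 0.670 and 4.90 CPM in CrAT, against 0.241 and 4.38 CPM in MCS. Both were higher in replicate 2, as Tfap2b was. Gch1, which makes the first intermediate of the cofactor that tyrosine hydroxylase needs, had 79 and 10 counts in CrAT and 25 and 2 counts in MCS, the opposite order of replicates to Th. The D2 dopamine receptor gene Drd2 was at 23.4 and 46.2 CPM in CrAT, against 14.2 and 60.7 CPM in MCS.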
